A study of Mus musculus with 18 samples.

Results

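Chromatin accessibility at promoters was compared between cortex bulk nuclei of mice whose somatostatin-positive (SOM+) cells carry an Erbb4 knockout (KO) and cortex bulk nuclei of wild-type (WT) mice. The comparison took 5 of the 18 libraries of the study, chosen by their titles: 3 cortex KO libraries and 2 cortex WT libraries. The study also profiled central amygdala (CeA) bulk nuclei of both genotypes, with 3 KO and 2 WT libraries, and SOM+ nuclei after fear conditioning. The assay was ATAC-seq, in which Tn5 transposase cuts open DNA and tags it for sequencing, and the values are reads counted in promoter windows that extend 1 kb before and 1 kb after a start site of transcription. The KO and WT mice were C57BL/6J, 2 to 3 months old and not fear-conditioned. Cortex here is microdissected prefrontal cortex, and each library held 50000 nuclei sorted on a DNA stain. The labels limit what the model can show in several ways. The knockout is in SOM+ cells alone, which are a small share of cortical nuclei, and the labels name neither the Cre line nor the deleted part of Erbb4. The WT libraries carry the KO entry in their genotype field, so their genotype rests on their titles. In the protocol the sorted aliquots are called technical replicates. Libraries of a group may therefore not be separate mice, and the p-values below then measure only the spread between libraries.

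Erbb4 is a receptor tyrosine kinase of the epidermal growth factor receptor family. Neuregulins bind it, it pairs with itself or with other family members, and it signals through the MAP kinase and PI3 kinase cascades; its intracellular part can also be released and enter the nucleus. In cortex it is found mainly in inhibitory interneurons, where it is known for shaping the synapses these cells receive and make. Somatostatin interneurons form one class of these cells and inhibit the dendrites of pyramidal neurons.

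No promoter passed the test between KO and WT cortex. Of 25196 promoter windows tested with edgeR's quasi-likelihood F test, 0 (0%) reached a Benjamini-Hochberg adjusted p under 0.05, and the smallest adjusted p was 1.00. At an unadjusted p under 0.05 there were 281 windows (1.12%), of which 197 (0.782%) were higher in KO and 84 (0.333%) were lower. With no difference anywhere, a fraction of about 0.05 of windows would reach that threshold, so 281 is not an excess. It falls well below that fraction, so the p-values ran larger than this assumption gives. DESeq2 also called 0, with 247 at an unadjusted p under 0.05, and limma after cyclic loess scaling called 0, with 478. Windows in which the 5 libraries did not overlap numbered 1562 with KO above WT (6.20%) and 1125 with KO below WT (4.46%). For 3 against 2 interchangeable libraries, the fraction would be 0.1 in each direction. More than 2-fold differences were found in 123 windows higher in KO (0.488%) and 38 lower (0.151%). The median log2 fold change over all windows was -0.00, and 90% of windows lay between -0.41 and 0.45. Leaving out the third KO library gave 1 call and 1995 windows at an unadjusted p under 0.05, and leaving out the first WT library gave 0 calls and 737 such windows.

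How closely a difference was measured depended on how open the promoter was. Levels are given in CPM, each count divided by the TMM-scaled promoter total of its library and multiplied by 1e+06. For the 2474 windows at 2 to 5 CPM, the median 95% interval of the log2 fold change reached 1.17 to either side of the estimate. It reached 0.45 in the 5982 windows at 20 to 50 CPM and 0.39 in the 4464 windows at 50 to 100 CPM. These intervals hold for 1 window at a time and are not adjusted for the 25196 windows tested. A difference larger than them was therefore not enough for a call. Of the windows more than 2-fold apart, 41 were under 2 CPM, 94 were at 2 to 5 CPM, and 0 were above 20 CPM.

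**Figure D1:**
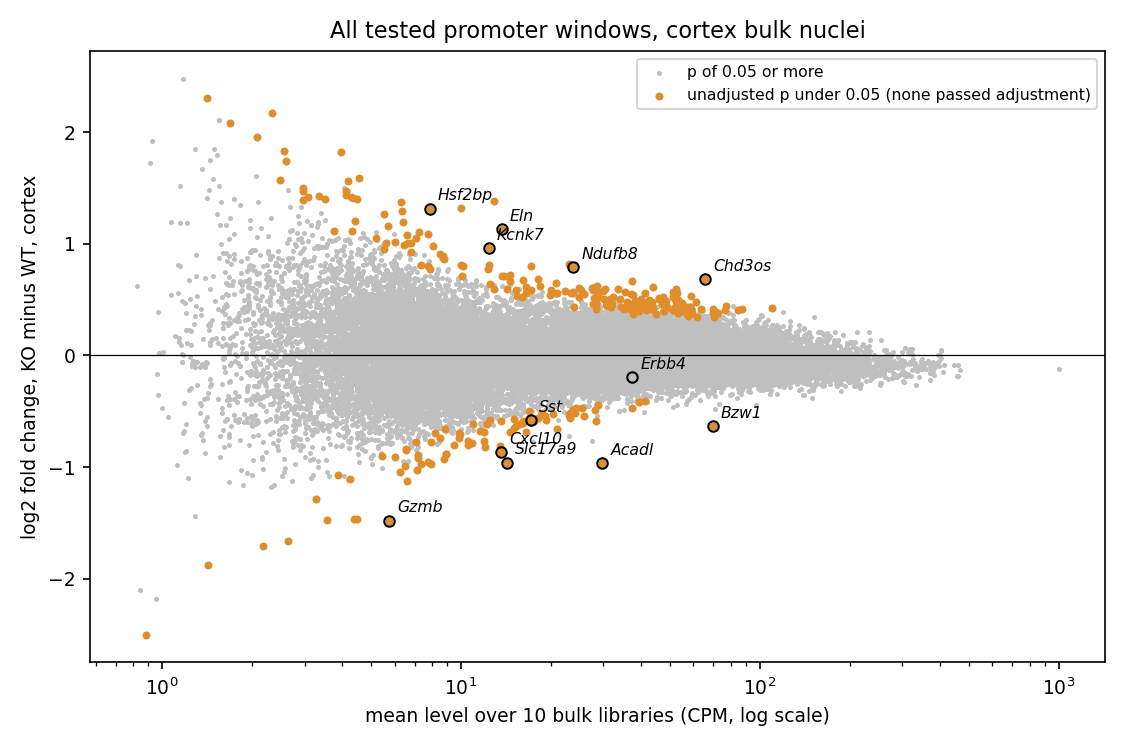
Log2 fold change of KO over WT cortex (y axis) against mean level (CPM, x axis, log scale) for the 25196 tested promoter windows, 1 point each. Orange points have an unadjusted p under 0.05 and circled points are named in the text; the spread narrows as the level rises, and Chd3os, Bzw1 and Acadl stand outside the cloud of windows of their level.

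The labelled sex of the libraries went against their Y-linked counts. All 3 KO libraries are labelled male, the first WT library female and the second male. Over the Y-linked promoters, the KO libraries had 587, 0 and 471 counts and the WT libraries 683 and 494. The second KO library, labelled male, thus had no Y-linked count, which allows up to 3 counts, and the first WT library, labelled female, had as many as the libraries labelled male. Xist, the non-coding RNA that silences an X chromosome in females, had 9.97, 26.8 and 4.52 CPM in KO and 6.00 and 4.71 CPM in WT, highest in the second KO library. The second CeA KO library also had 0 Y-linked counts. Leaving out the second KO and the first WT cortex library together left the number of calls at 0, with 532 windows at an unadjusted p under 0.05.

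Library quality varied within both genotypes. Promoter counts were 5169516 to 7939962 in KO and 5146020 and 6072195 in WT, so that a count of 0 allows up to 0.378 to 0.583 CPM over the 5 libraries, counting error only. The ratio of the median ribosomal protein promoter to the median olfactory receptor promoter, a measure of how far open promoters stand out, was 9.67, 14.0 and 12.5 in KO and 9.57 and 12.9 in WT (exact two-sided permutation p = 0.7 over 10 arrangements, which allow no p under 0.1). Libraries of 1 genotype correlated across promoters at r = 0.949 to 0.967 over 4 pairs, and KO with WT libraries at 0.954 to 0.976 over 6 pairs; promoters are not independent replicates. The first principal component held 54.4% of the variance and set the third KO and the second WT library apart from the other 3. As a check of the dissected region, the neuronal gene Nrn1 had 67.8, 77.7 and 69.6 CPM in cortex KO and 63.5 and 60.2 CPM in cortex WT. It had at most 19.0 CPM in any CeA bulk library. This check rests on 1 gene. Rorb and Tle4, also markers of glutamatergic neurons, overlapped between the regions. Rorb had 50.1 to 92.4 CPM in cortex and 29.9 to 50.3 CPM in CeA, and Tle4 234 to 358 CPM and 213 to 296 CPM.

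**Figure D2:**
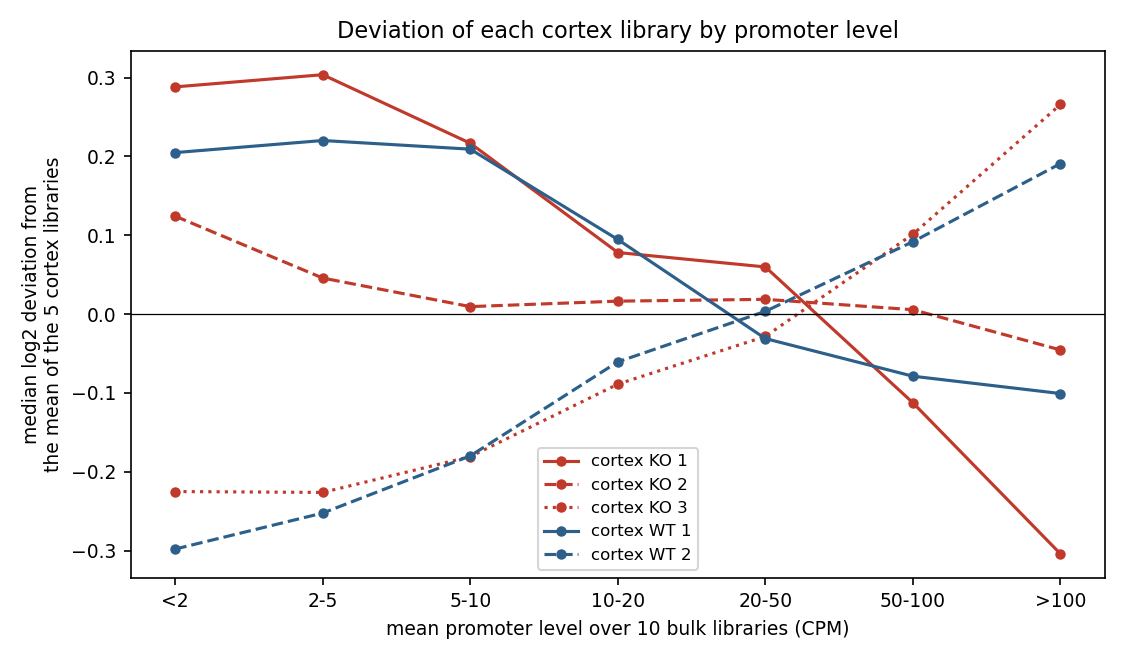
Median log2 deviation of each cortex library from the mean of the 5 (y axis), by mean promoter level in CPM (x axis), with KO in red and WT in blue. The third KO and second WT libraries lie low at weak promoters and high at strong ones, the first KO and first WT libraries the reverse, so the pattern runs across the genotypes.

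The Erbb4 promoter itself had overlapping levels in the genotypes. It was measured in its window on chromosome 1, 69153634 to 69155633 in mm9. The Erbb4 promoter had 27.6, 38.4 and 41.7 CPM in KO and 35.8 and 46.5 CPM in WT. The genotypes overlapped, with the lowest value in the first KO library and the highest in the second WT library. Its log2 fold change was -0.19 ± 0.21 (SE), with a 95% interval of -0.63 to 0.25 (edgeR, adjusted p = 1.00). A promoter window need not lie in the deleted part of a gene, and most nuclei of a bulk sample keep the gene, so this value does not check the knockout. Sst, which encodes somatostatin and marks the targeted cells, had 10.5, 8.27 and 14.2 CPM in KO and 13.8 and 18.9 CPM in WT. Only the third KO library exceeded the lower WT library, and the log2 fold change of -0.58 ± 0.30, with a 95% interval of -1.20 to 0.05, did not pass the test (edgeR, adjusted p = 1.00). In bulk nuclei, fewer open nuclei and less openness per nucleus cannot be told apart.

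The promoter sequences of Erbb4 and Sst are shown because these genes define the targeted deletion and the targeted cell. Both are RefSeq sequences of GRCm38.p6, from 250 bases before to 50 after the start site, matched by gene symbol and not by coordinates, since the counts use mm9. The Erbb4 sequence is chr1:69108010-69108309, minus strand, and the Sst sequence is chr16:23890795-23891094, minus strand. The capitals mark the single match to TGACGTCA, the cAMP response element that the somatostatin promoter is known for, at 48 to 41 bases before the start site.
Erbb4: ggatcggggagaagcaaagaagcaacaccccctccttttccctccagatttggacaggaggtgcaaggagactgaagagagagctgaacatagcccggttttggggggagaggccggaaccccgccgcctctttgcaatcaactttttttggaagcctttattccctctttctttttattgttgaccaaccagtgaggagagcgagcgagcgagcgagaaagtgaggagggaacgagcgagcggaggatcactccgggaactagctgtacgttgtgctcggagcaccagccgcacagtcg
Sst: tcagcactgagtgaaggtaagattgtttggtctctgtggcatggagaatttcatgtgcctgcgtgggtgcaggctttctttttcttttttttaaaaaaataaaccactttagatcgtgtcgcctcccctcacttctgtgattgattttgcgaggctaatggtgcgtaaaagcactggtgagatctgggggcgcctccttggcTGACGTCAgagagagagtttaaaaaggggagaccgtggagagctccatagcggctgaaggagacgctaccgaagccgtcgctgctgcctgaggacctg
The motifs searched, on both strands, were the TATA box TATAAA, the GC box GGGCGG, the CCAAT box, the E box CACGTG, the cAMP response element TGACGTCA and the AP-1 site TGACTCA. The Erbb4 sequence held none of them, with 17 CpG and 55.3% G+C. The Sst sequence held 13 CpG and 50.3% G+C, and TGACGTCA is found in 1.79% of the 32851 promoters of the table. The median promoter of the table has 7 CpG and 52.7% G+C.

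No receptor or ligand of the ErbB family passed the test. Of 15 tested receptor and ligand promoters, 0 were called, 14 had a negative log2 fold change and 1, Tgfa, a positive one of 0.03; their median was -0.11, beside -0.00 over all windows. Egfr, the epidermal growth factor receptor, had 19.6, 24.4 and 26.9 CPM in KO and 29.3 and 37.3 CPM in WT. Every KO library was below both WT libraries, and Egfr was the 1 family member at an unadjusted p under 0.05, at -0.49 ± 0.22 (edgeR, adjusted p = 1.00). In CeA its log2 fold change was 0.02 ± 0.23. Erbb2, the partner receptor with no known ligand of its own, was at -0.31 ± 0.33, and Erbb3, a neuregulin receptor with a weak kinase, at -0.05 ± 0.28. Among the ligands of Erbb4, Nrg1 was at -0.11 ± 0.24, Nrg2 at -0.04 ± 0.19 and Nrg3 at -0.03 ± 0.18, and the genotypes overlapped at each. Betacellulin, Btc, another ligand, was at -0.37 ± 0.27. The median of the family was negative under each scaling used, from -0.15 with cyclic loess to -0.09 with no TMM scaling. It moved more with single libraries, to -0.24 without the third KO library and -0.06 without the first. Of 55 promoters of downstream signalling, which include adaptors, kinases, ubiquitin ligases and proteases that cleave Erbb4, 0 were called and the median was 0.02. Gsk3b, a kinase that Akt inhibits and the most open promoter of this list, had a log2 fold change of 0.04 ± 0.24. Rnf41, a ubiquitin ligase for ErbB receptors, had 55.3, 39.4 and 37.9 CPM in KO and 35.8 and 34.7 CPM in WT. Its KO libraries were all above WT, at 0.32 ± 0.20 (edgeR, adjusted p = 1.00), and its window overlaps that of Nabp2.

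The smallest p in cortex belonged to Acadl, which encodes the long-chain acyl-CoA dehydrogenase of mitochondrial fatty acid oxidation. Acadl lies on chromosome 1, 66908884 to 66910883 in mm9, at -2.24 Mb from the Erbb4 start site, a minus sign meaning lower coordinates. The Acadl promoter had 19.4, 18.7 and 28.1 CPM in cortex KO and 41.5 and 44.4 CPM in cortex WT. The genotypes did not overlap, and the third KO library was the highest of the KO libraries. KO cortex averaged 22.1 ± 5.25 CPM (SD, n = 3) and WT cortex 42.9 ± 2.03 CPM (SD, n = 2), a log2 fold change of -0.97 ± 0.20 with a 95% interval of -1.39 to -0.54 (edgeR, adjusted p = 1.00). In CeA the Acadl promoter had 20.6, 22.7 and 23.6 CPM in KO and 39.0 and 39.7 CPM in WT. All 6 KO libraries of both regions were thus below all 4 WT libraries. The CeA log2 fold change was -0.82 ± 0.21 (edgeR, adjusted p = 0.785), the sixth smallest p there, and the difference between the regions was -0.15 ± 0.30 (edgeR, adjusted p = 0.981). Whether cortex and CeA libraries came from the same mice is not given by the labels. Without the third KO library Acadl was called, at -1.20 (edgeR, adjusted p = 0.039); under the other alternatives its adjusted p was 0.738 or more.

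Bzw1 showed the same order of genotypes in both regions. It encodes a regulator of translation initiation and lies on chromosome 1, 58448980 to 58450979 in mm9, at -10.7 Mb from the Erbb4 start site. The Bzw1 promoter had 47.2, 61.2 and 61.5 CPM in cortex KO and 78.9 and 96.9 CPM in cortex WT. In CeA it had 60.5, 57.5 and 57.7 CPM in KO and 84.4 and 90.3 CPM in WT. In neither region did the genotypes overlap. The log2 fold change was -0.63 ± 0.17 in cortex (edgeR, adjusted p = 1.00) and -0.57 ± 0.17 in CeA (edgeR, adjusted p = 0.785). The difference between the regions was -0.06 ± 0.25 (edgeR, adjusted p = 0.989). Windows below WT in all libraries of both regions numbered 218 of 25196 (0.865%), and windows above WT in all of them 363 (1.44%).

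The promoters of Acadl and Bzw1 are shown because these genes had the lowest p among promoters that were lower in KO. The Acadl sequence is chr1:66863260-66863559, minus strand, and the Bzw1 sequence is chr1:58392648-58392947, plus strand, both RefSeq in GRCm38.p6 and matched by symbol. The capitals mark GGGCGG on the opposite strand, read here as CCGCCC, the core of the GC box.
Acadl: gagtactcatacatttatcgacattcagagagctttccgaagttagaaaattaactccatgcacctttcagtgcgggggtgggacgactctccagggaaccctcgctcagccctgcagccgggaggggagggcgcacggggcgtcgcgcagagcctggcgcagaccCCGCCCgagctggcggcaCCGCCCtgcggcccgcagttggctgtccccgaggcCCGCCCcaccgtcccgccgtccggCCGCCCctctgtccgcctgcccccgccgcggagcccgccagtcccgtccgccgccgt
Bzw1: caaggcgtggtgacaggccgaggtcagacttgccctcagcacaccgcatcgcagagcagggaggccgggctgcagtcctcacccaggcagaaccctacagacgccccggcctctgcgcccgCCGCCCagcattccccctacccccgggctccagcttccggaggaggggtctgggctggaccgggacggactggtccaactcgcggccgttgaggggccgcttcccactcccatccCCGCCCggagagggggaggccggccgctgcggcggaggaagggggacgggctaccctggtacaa
Both are rich in CpG. Acadl held 34 CpG, 70.3% G+C and 4 such matches, at 84, 66, 31 and 7 bases before the start site counting their first base. Bzw1 held 25 CpG, 72% G+C and 2 matches, at 129 and 14 bases before it. The motif is found in 35.7% of promoters of the table, and the other 5 motifs had no match in either sequence.

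**Figure D3:**
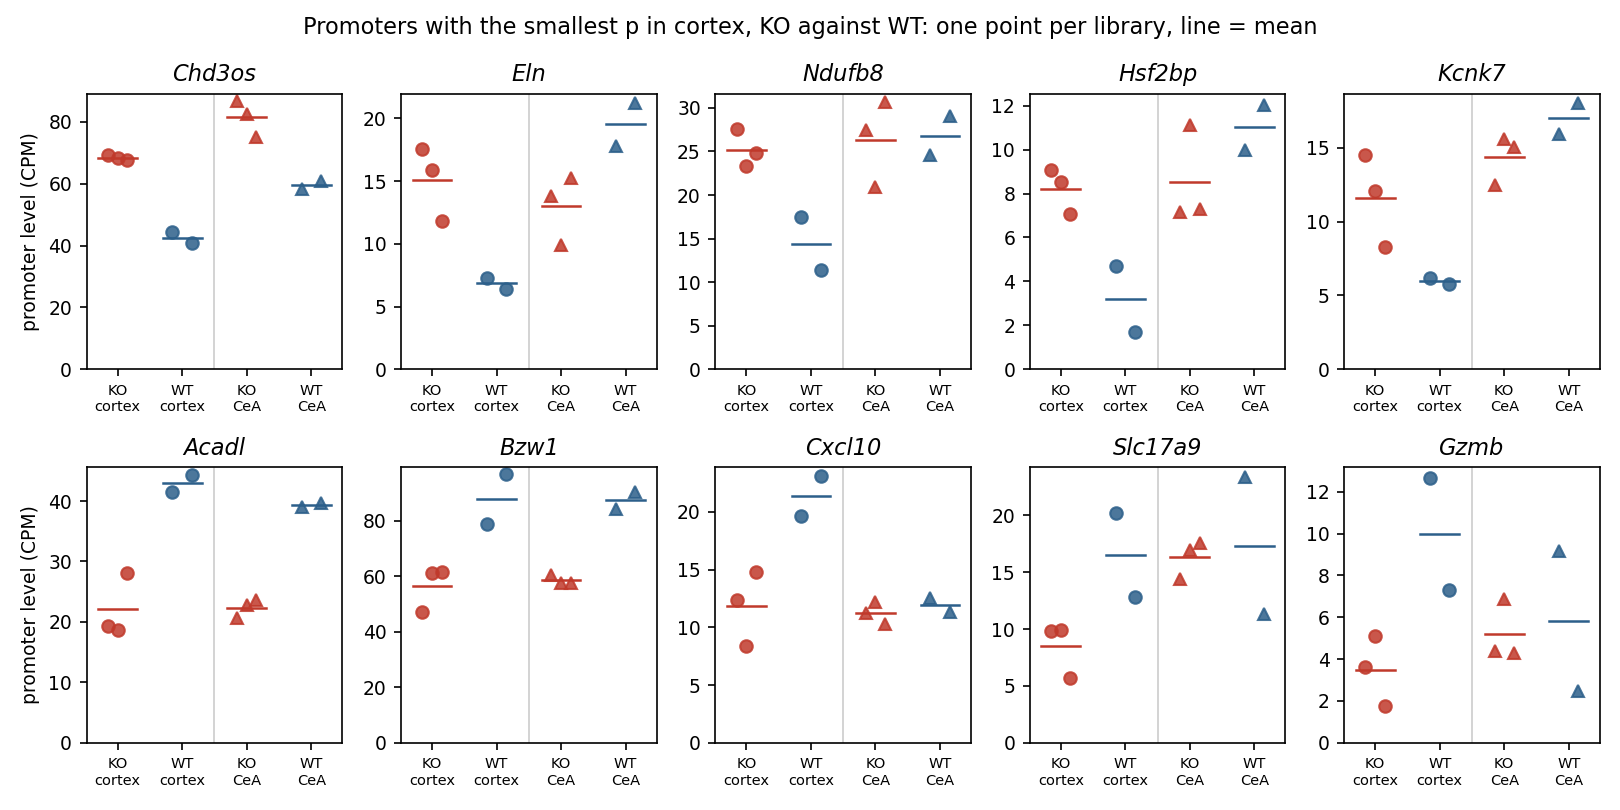
Level in CPM (y axis) of the 10 named promoters with the smallest p, 1 point per library (circles cortex, triangles CeA; KO red, WT blue; lines are means). Acadl and Bzw1 lie below WT in both regions and Chd3os above WT in both, while Eln lies above WT in cortex and below WT in CeA.

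Other promoters with small p and lower values in KO cortex were at low levels. Cxcl10, a chemokine induced by interferon, had 12.3, 8.39 and 14.7 CPM in KO and 19.6 and 23.1 CPM in WT, without overlap. Its log2 fold change was -0.86 ± 0.27 in cortex (edgeR, adjusted p = 1.00) and -0.09 ± 0.29 in CeA. Slc17a9, the vesicular nucleotide transporter, had 9.79, 9.92 and 5.70 CPM in KO and 20.3 and 12.9 CPM in WT. Here the WT libraries lay far apart, and the log2 fold change was -0.96 ± 0.32 (edgeR, adjusted p = 1.00). Gzmb, a protease of cytotoxic lymphocytes, was at 1.77 to 5.09 CPM in KO and at 7.29 and 12.6 CPM in WT, a log2 fold change of -1.48 ± 0.50 (edgeR, adjusted p = 1.00). Over the alternatives Gzmb ranged from -1.89 to -0.38 and Slc17a9 from -1.24 to -0.37, nearest to 0 with the replicate block and labelled sex together. Without the first WT library Slc17a9 was at -0.63.

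Among promoters that were higher in KO cortex, Chd3os had the smallest p. Chd3os is named as a transcript on the strand opposite to Chd3, a chromatin remodeller. ATAC-seq reads carry no strand, so they do not tell which strand is transcribed from this window. The window overlapped no other tested window. The Chd3os promoter, chromosome 11, 69153271 to 69155270 in mm9, had 69.1, 68.3 and 67.6 CPM in KO and 44.2 and 40.9 CPM in WT. The genotypes were well apart and the KO libraries nearly equal, at a log2 fold change of 0.68 ± 0.16 with a 95% interval of 0.34 to 1.02 (edgeR, adjusted p = 1.00). In CeA it had 86.8, 82.5 and 75.1 CPM in KO and 58.1 and 60.9 CPM in WT. The CeA log2 fold change was 0.46 ± 0.16 (edgeR, adjusted p = 0.785), again without overlap. The range of the cortex value over all alternatives was 0.63 to 0.71, with an adjusted p of 0.519 or more.

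Eln, which encodes elastin, differed in direction between the regions. The Eln promoter had 17.6, 15.9 and 11.8 CPM in cortex KO and 7.29 and 6.43 CPM in cortex WT. In CeA it had 13.8, 9.92 and 15.2 CPM in KO and 17.8 and 21.2 CPM in WT. KO was above WT in every cortex library and below WT in every CeA library. The log2 fold change was 1.13 ± 0.30 in cortex (edgeR, adjusted p = 1.00) and -0.59 ± 0.28 in CeA (edgeR, adjusted p = 0.785). The difference between regions, 1.72 ± 0.40, had the smallest p of that test and did not pass it (edgeR, adjusted p = 0.981). Over all windows the difference between regions gave 0 calls (0%) with edgeR and 498 windows (1.98%) at an unadjusted p under 0.05, 380 positive (1.51%) and 118 negative (0.468%). The comparison of KO with WT in CeA gave 0 calls and 1356 such windows (5.38%), 506 higher in KO (2.01%) and 850 lower (3.37%). Of the other promoters that were higher in KO cortex, Ndufb8, a subunit of respiratory complex I, had 27.6, 23.3 and 24.8 CPM in KO and 17.5 and 11.4 CPM in WT. Its log2 fold change was 0.79 ± 0.24 in cortex (edgeR, adjusted p = 1.00) and -0.02 ± 0.24 in CeA. Hsf2bp, whose protein takes part in meiotic recombination, was at 1.31 ± 0.42 in a window shared with Rrp1b, and Kcnk7, of the potassium leak channel family, at 0.96 ± 0.31; in both the cortex genotypes did not overlap. Hsf2bp ranged from 0.81 without the second WT library to 2.21 without the first, and Ndufb8 was at 0.52 without the second WT library.

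Windows at an unadjusted p under 0.05 were unevenly spread over the chromosomes. Chromosome 1 carries 1435 of the tested windows (5.70%), and it held 15 of the 84 windows lower in KO at an unadjusted p under 0.05 (17.9%) and 4 of the 197 higher ones. Other chromosomes also stood above their share: chromosome 14, with 3.58% of the windows, held 8 of the lower ones (9.52%). Chromosome 11, with 7.69% of the windows, held 33 of the higher ones (16.8%), and chromosome 7, with 8.60%, held 29 (14.7%). The counts for chromosome 1 were made after the position of Acadl and Bzw1 was seen, neighbouring windows can share reads, and no test was made of them. Without the second KO library chromosome 1 held 8 of 102 lower windows (7.84%), without the third KO library 118 of 1405 (8.40%), without the second WT library 18 of 173 (10.4%), and without the second KO and first WT libraries 8 of 73 (11.0%). Over all alternatives the share of lower windows on chromosome 1 ranged from 7.84% to 19.6%. The 15 were taken for a small p in cortex, which nearly fixes the order of the cortex libraries: 13 had every KO library below every WT library there, beside 4.46% over all windows. In CeA, 11 of the 15 had a negative log2 fold change, while others, among them Ackr3 at 0.39 and Slamf9 at 0.28, were positive. Of the 15, 6 had KO below WT throughout in CeA as well, beside 13.6% of all windows in CeA. These were Bzw1, Acadl, Cyp27a1, Ugt1a6a, Gm19589 and Lct, named after their values were seen. Cyp27a1, a mitochondrial sterol hydroxylase gene 5.61 Mb from the Erbb4 start site on the other side, had 8.71, 10.6 and 13.4 CPM in cortex KO and 19.4 and 13.7 CPM in cortex WT. The third KO library nearly reached the second WT library, and the log2 fold change was -0.62 ± 0.28 (edgeR, adjusted p = 1.00). Lct, the intestinal lactase gene 61.1 Mb away, had 6.53, 6.61 and 9.63 CPM in KO and 11.7 and 12.2 CPM in WT.

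Close to Erbb4 the 3 windows with a small p were lower in KO, among them Acadl and Bzw1, which led to this count. Within 15 Mb of the Erbb4 start site 252 windows were tested, of which 0 were higher and 3 lower at an unadjusted p under 0.05 (Bzw1, Acadl and Cyp27a1). The lower ones were 1.19% of these windows, against 0.333% over all windows, and the higher ones 0 against 0.782%; with both directions together the share was 1.19% against 1.12%. No test was made of these counts, since Acadl and Bzw1 led to them. Over the 252 windows the median log2 fold change was -0.04 in cortex and 0.09 in CeA. In cortex KO was below WT throughout at 15 of them (5.95%, against 4.46% over all windows) and above it at 12 (4.76%, against 6.20%). Within 5 Mb, 58 windows were tested, with 0 higher and 1 lower at an unadjusted p under 0.05. There KO was below WT throughout at 1 (1.72%) and above it at 2 (3.45%). Myl1, a muscle myosin light chain gene, lies at -2.17 Mb from Erbb4 and next to Acadl. In cortex it had 21.0, 19.5 and 38.7 CPM in KO and 30.1 and 38.4 CPM in WT, with overlap. In CeA it had 8.8, 8.6 and 7.7 CPM in KO and 13.7 and 24.8 CPM in WT. There every KO library was below WT, as at 13.6% of all windows in CeA, and the log2 fold change was -1.15. Myl1 was not called in CeA and was named after its values were seen. Icos, at -8.12 Mb from Erbb4, went the other way. Its KO libraries were all above WT in both regions, with a log2 fold change of 0.78 in cortex and 0.96 in CeA. Within 15 Mb of Sst, on chromosome 16, 404 windows were tested, of which 3 were higher and 1 lower at an unadjusted p under 0.05.

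**Figure D4:**
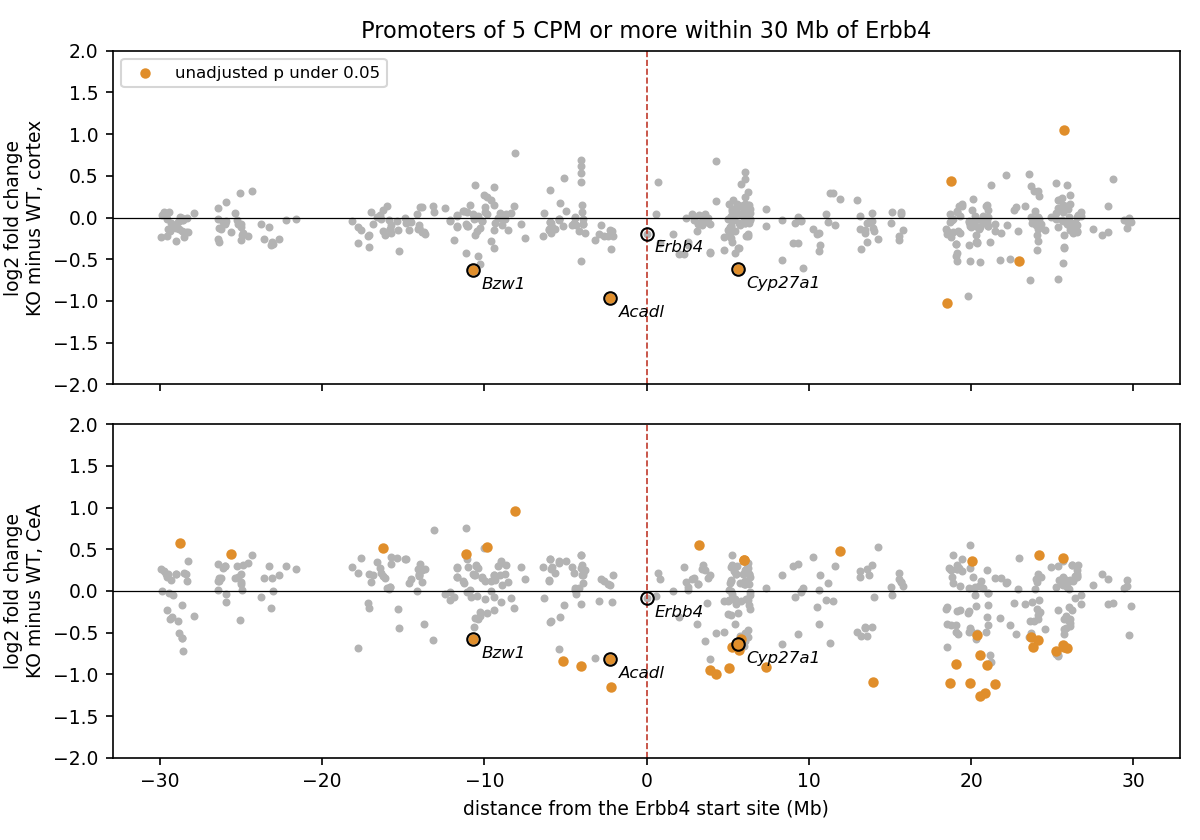
Log2 fold change of KO over WT (y axis) in cortex (top) and CeA (bottom) against distance from the Erbb4 start site in Mb (x axis), for the 487 promoters of 5 CPM or more within 30 Mb. Orange points have an unadjusted p under 0.05; Acadl, Bzw1 and Cyp27a1 are low in both regions among neighbours that lie on both sides of 0.

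No marker promoter of a cortical cell type was called. In each of the lists below the number of called members was 0. The somatostatin neuron list had 25 tested promoters with a median log2 fold change of -0.07, 9 of them positive, and summed to 619 to 945 CPM in KO and 767 and 875 CPM in WT. Its members with the smallest p were Sst and Cbln4, a synaptic organizer of somatostatin cells, which had 15.1, 15.0 and 20.8 CPM in KO and 23.5 and 22.7 CPM in WT. Every KO value of Cbln4 was below WT, at -0.45 ± 0.23 (edgeR, adjusted p = 1.00). Over the list, 2 of 25 promoters had KO below WT throughout (8%, against 4.46% over all windows). Another 2 had KO above WT throughout (8%, against 6.20%), and the highest log2 fold change was 0.63. The 18 GABAergic neuron promoters had a median of 0.10 and summed to 547 to 609 CPM in KO and 519 and 604 CPM in WT. Of the 18, 1 had KO above WT throughout (5.56%, against 6.20% over all windows). It was Sp9, a transcription factor of the ganglionic eminences, at 22.1, 17.9 and 15.3 CPM in KO and 14.7 and 14.1 CPM in WT. The log2 fold change of Sp9 was 0.35 ± 0.22 (edgeR, adjusted p = 1.00). The 32 glutamatergic neuron promoters had a median of 0.00 and lay between -0.27 and 0.23. Markers of other interneuron classes (25 promoters, median -0.05) held Egfr, given above, as their 1 member at an unadjusted p under 0.05.

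Glial and vascular promoters overlapped between the genotypes in their sums. The 20 astrocyte promoters had a median of -0.04 and summed to 501 to 546 CPM in KO and 530 and 538 CPM in WT. The 26 oligodendrocyte lineage promoters had a median of -0.01 and spanned the widest range of these lists, from -0.92 to 0.56. The low end was Enpp6, a choline phosphodiesterase of newly forming oligodendrocytes, with 6.89, 5.85 and 5.51 CPM in KO and 13.1 and 9.86 CPM in WT. The genotypes did not overlap at Enpp6, at -0.92 ± 0.35 (edgeR, adjusted p = 1.00), and in CeA its log2 fold change was -0.23. The high end was Mobp, a myelin protein of mature oligodendrocytes, with 15.8, 12.2 and 12.8 CPM in KO and 8.59 and 9.86 CPM in WT, at 0.56 ± 0.29 (edgeR, adjusted p = 1.00). The 23 microglia promoters had a median of -0.16, which was 0.15 without the first WT library, and the 29 vascular promoters -0.04. No marker of these lists was at 0 CPM in any cortex library. Promoters that mark other brain regions, choroid plexus and ependyma, and so the borders of the dissection (26 tested), had a median of 0.22, with 22 positive, and summed to 386 to 424 CPM in KO and 347 and 382 CPM in WT. The sum was above WT in every KO library, though the lowest KO library was close to the higher WT library, and its part in other values was not tested. These medians moved with single libraries: the GABAergic one was -0.04 without the first WT library, the somatostatin one 0.01 without the first KO library and -0.29 without the third, that of the other interneuron classes -0.01 without the first KO library and -0.19 without the third, and that of the other brain regions 0.08 without the second WT library.

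**Figure D5:**
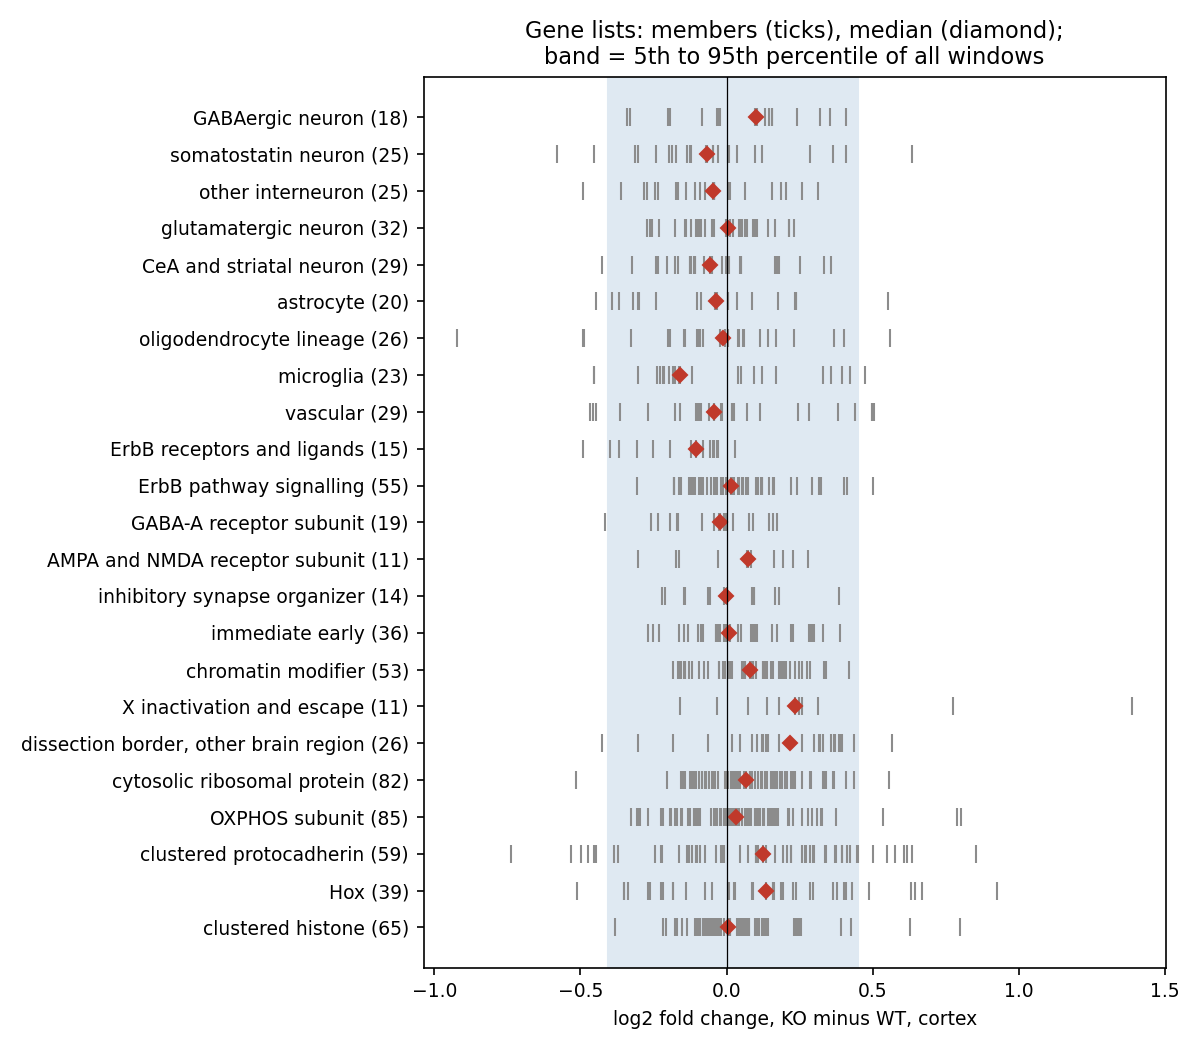
Log2 fold change of KO over WT cortex (x axis) for the members of each gene list (ticks) with the list's median (diamond) and its number of tested promoters in parentheses; the band is the 5th to 95th percentile of all windows, -0.41 to 0.45. All medians lie inside the band; the Y-linked and olfactory receptor lists are not drawn.

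Synaptic receptor, activity and chromatin lists likewise held no called member. The 19 GABA-A receptor subunit promoters had a median of -0.02 and the 11 AMPA and NMDA receptor subunit promoters 0.07, with 0 members at an unadjusted p under 0.05 in either. The GABA-A median was -0.15 without the first WT library, 0.05 without the second, and -0.32 with the replicate block and labelled sex together. Gria1, an AMPA receptor subunit, had 51.0, 56.1 and 46.0 CPM in KO and 42.0 and 42.2 CPM in WT, at 0.28 ± 0.20 (edgeR, adjusted p = 1.00). The 36 immediate early promoters, of genes that neuronal activity switches on, had a median of 0.01. In 4 of these the KO libraries were all above WT (11.1% against 6.20% over all windows). One was Dusp1, a phosphatase that turns MAP kinases off, with 71.1, 55.8 and 50.7 CPM in KO and 44.9 and 45.6 CPM in WT. Its log2 fold change was 0.39 ± 0.18 (edgeR, adjusted p = 1.00). Gadd45g, a growth arrest and stress response gene, was at 0.29 ± 0.17 and was above WT in all KO libraries of both regions. The 53 chromatin modifier promoters had a median of 0.08 and 0 members at an unadjusted p under 0.05.

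Promoters open in nearly every cell also held no called member. Of 82 cytosolic ribosomal protein promoters, 0 were called, 57 were positive, and 3 were higher in KO at an unadjusted p under 0.05 (0.782% over all windows), with a list median of 0.07. Rpl14, a protein of the large ribosomal subunit, was at 0.44 ± 0.18 and Rpl19 of the same subunit at 0.56 ± 0.23 (edgeR, adjusted p = 1.00 for each). Of 85 promoters of oxidative phosphorylation subunits, 2 were higher at an unadjusted p under 0.05, beside the same 0.782%; these were Ndufb8 and Cox6b1, and the median was 0.03. Closed or weakly open promoters varied more. The 59 clustered protocadherin promoters, of adhesion proteins that give neurons a surface identity, had a median of 0.12, and the 39 Hox promoters, of the body axis, a median of 0.14. Both medians turned with single libraries: without the second WT library they were -0.12 and -0.27, and without the first WT library 0.41 and 0.51. Of the remaining lists, CeA and striatal neuron markers (29 tested) had a median of -0.06, which was -0.20 without the third KO library and 0.02 without the first. Inhibitory synapse organizers (14) had a median of -0.00, which was -0.13 without the first WT library and -0.24 with the replicate block and labelled sex together. Medians were 0.01 for clustered histones (65) and 0.01 for olfactory receptors (1111). The X inactivation and escape list (11) had a median of 0.23, with 9 positive and 1, Xist, higher at an unadjusted p under 0.05. That median was 0.01 without the second KO library and -0.15 without the second KO and first WT libraries together. The 5 tested Y-linked promoters had a median of -0.77, beside the counts per library given above. Of the 1000 X-linked windows, 9 were higher (0.9%, against 0.782% over all windows) and 0 lower at an unadjusted p under 0.05, with a median of 0.00.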

How the data were processed

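ATAC-seq was measured in 18 libraries, and 10 bulk libraries entered the fit. The authors deposited raw read counts per promoter window in mm9, with no normalization. The submitters' processing notes name Bowtie2, MACS2, Picard 1.88, Trimmomatic 0.32 and bcl2fastq 2.16.0.10; for the counting program and any Tn5 shift, nothing is given in the sources used here. Of 26728 entries, 663 repeated another window, which left 26065; 1435 were wider than 2000 bases. Column totals are promoter counts, not sequencing depth.

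The fit used edgeR 4.0.16 under R 4.3.3 (TMM, filterByExpr with minimum count 10 and minimum total 15, robust quasi-likelihood F test, 1 mean per group, 6 residual degrees of freedom), which kept 25196 windows. P values were adjusted by Benjamini-Hochberg over all of them, and a call is an adjusted p under 0.05. No sex term was used in the reported fit. limma 3.58.1, DESeq2 1.42.0 and other settings were alternatives. The edgeR fit was tested on simulated counts.

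Members, lists and tests were chosen with earlier results of these data known. Named promoters were the 5 with the smallest p in each direction, since none was called, leaving out predicted genes, clone names, Olfr, Vmn and small RNA genes; Erbb4, Sst, Erbb2, Erbb3, Egfr, Nrg1, Nrg2, Nrg3 and Xist; and from each list the 2 members with the smallest p and the 1 with the highest level. For a gene with several windows in a list, its most counted window was taken. The chromosome 1 genes Cyp27a1, Ugt1a6a, Gm19589, Lct, Myl1 and Icos were named outside these rules, after their values were seen. So were Tgfa and Uty. Of 19 promoters named by the first 2 rules, 13 had a sequence in the RefSeq table.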

Additional observations from a re-analysis of the deposited data

Results flagged for a closer look

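In 5 named promoters the KO libraries lay to one side of WT in every cortex library and to the other side in every CeA library. The cortex minus CeA difference in log2 fold change was 1.72 for Eln, 1.19 for Kcnk7, 0.49 for Nrn1, -0.68 for Aqp4, the water channel of astrocyte endfeet, and 1.58 for Hist1h1t, a testis linker histone. The difference itself was tested with edgeR and none passed, with adjusted p of 0.981 or more. Over all windows, 178 (0.706%) were above WT in every cortex library and below it in every CeA library, and 92 (0.365%) the reverse.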

How the results depend on the processing

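The number of calls in cortex stayed at 0 under other scaling, other filters, labelled sex as a term, DESeq2, limma and the left-out CeA libraries. It was 3 with the replicate block and labelled sex together, as it was in CeA. In cortex these were Eif2s3y, Uty and Ddx3y, Y-linked and at 0 in the second KO library. With the replicate block alone it was 0, with 585 windows at an unadjusted p under 0.05, against 281 without it. Deviations of KO and WT cortex libraries correlated at 0.41 for number 1 and -0.22 for number 2. Between cortex and CeA, libraries of one number correlated at -0.20, 0.26 and 0.02 in KO. In WT the value was 0.38 for both numbers, which is a single value: with 2 libraries, the deviations of one mirror those of the other. Both second KO libraries have 0 Y-linked counts. The correlations cannot decide whether the replicate numbers pair KO with WT cortex libraries. Whether cortex and CeA libraries of one number share a mouse was not settled either. Leaving out 1 cortex library at a time gave 0 to 1 calls, the 1 being Acadl without the third KO library; the cause was not tested. Windows at an unadjusted p under 0.05 ranged from 161 (cortex libraries alone) to 1995 (without the third KO library); they numbered 816 with labelled sex as a term, 737 without the first WT library, 584 with library enrichment as a term and 263 with presence of Y-linked counts as a term, the last 2 chosen after seeing the data. The difference between regions gave 0 calls throughout. The KO minus WT difference in promoter enrichment was 0.85, -0.14 with oxidative phosphorylation promoters in place of ribosomal ones, and -0.81 to 2.50 when 1 library was left out. Of 2053 alternative values for 86 named promoters, 1937 kept their direction and call, 113 turned sign without a call, and 3 passed the threshold. Of 600 list medians, 34 moved by more than 1 SD between KO libraries. With 3 against 2 libraries, the 95% intervals of promoters at 2 to 5 CPM reached 1.17 on the log2 scale to either side.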
